A study of Arabidopsis thaliana with 6 samples.

Results

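NBS-LRR genes encode intracellular immune receptors with a nucleotide-binding site (NBS, also called NB-ARC) and leucine-rich repeats (LRR). Members were taken by annotation, not by level: every locus of the deposited table whose short description holds NBS-LRR or NB-ARC, without loci described as WRKY proteins or pseudogenes. The rule found 117 of the 32594 loci. RNA came from whole Arabidopsis thaliana seedlings aged 14 days, grown without treatment on MS plates, with 2 libraries for each of 3 genotypes. Wild-type plants were Col-0. Plants labelled apc8-1 are mutant in APC8, which belongs to the anaphase promoting complex, a ubiquitin ligase of the cell cycle. Plants labelled nrpe1-12 are mutant in NRPE1, the catalytic subunit of RNA polymerase V, which acts in RNA-directed DNA methylation. Each gene is thus represented by 1 allele, and no library was made from plants challenged with a pathogen. The series joins the 2 genes through DMS3, a protein of RNA-directed DNA methylation, so the comparisons address how each allele, and 1 allele relative to the other, alters the levels of these receptor transcripts.

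Plant NBS-LRR receptors detect pathogen effectors inside the cell, either directly or through a plant protein that the effector alters, and switch on local cell death and salicylic acid signalling. Receptors with an N-terminal TIR domain signal through EDS1 with PAD4 or SAG101 and through helper receptors of the ADR1 and NRG1 families, while receptors with a coiled coil (CC) can act at the plasma membrane. Their genes often lie in clusters of relatives, and their transcript levels are held in check, because excess receptor activity stunts growth. Some lie beside transposons or repeats that carry DNA methylation.

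The authors deposited levels as FPKM, which counts fragments relative to library size and transcript length and so already corrects for transcript length. Changes are differences of log2(FPKM + 1), which understate the change of low loci, and a locus is called at a Benjamini-Hochberg adjusted p below 0.05 in a limma fit of all 6 libraries over the 17802 loci that reached 1 FPKM in 2 or more libraries. At 1 FPKM a transcript had an estimated 13.8 to 18.95 fragments per kilobase. Whether duplicates came from separate cultures is not stated in the labels, and p-values then describe the spread between these libraries alone. The transcript of NRPE1 was at 2.71 and 2.91 FPKM in Col-0 and rose to 6.46 and 5.94 in nrpe1-12 (log2 change 0.92, SE 0.12, adjusted p = 9.77e-04), and APC8 was not called in apc8-1 (1.29 and 1.64 against 1.80 and 1.93 FPKM); the kind of lesion is not given, so these levels do not check the labels. Organ markers moved with genotype. All 8 leaf markers were called higher in both mutants, with a summed level of 19336 to 19454 FPKM in Col-0, 25968 to 27319 in apc8-1 and 29163 to 30686 in nrpe1-12. With quantile normalization 4 of the 8 (RBCS1A, LHCB2.1, PSAD1 and PSBO1) were no longer called in either mutant, and LHCB2.1 lost its call in apc8-1 under 10 of 15 alternatives. Of 16 root markers, 15 are in the table and 7 were tested; in each mutant 4 were called lower and 1 higher, and the summed level was 693 to 716 FPKM in Col-0, 393 to 435 in apc8-1 and 507 to 555 in nrpe1-12. The 1 root marker called higher, SCR, lost its call under 4 of 15 alternatives in apc8-1 and 5 of 14 in nrpe1-12. CASP1, called lower, lost its call under 1 of 12 alternatives in apc8-1 and 1 of 11 in nrpe1-12. None of the markers in the table was at 0 in every library. Their part in the results on the receptors was not tested, and in RNA of whole seedlings fewer cells of a type and less RNA per cell cannot be told apart.

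Most receptor transcripts were scarce in Col-0. On the mean of its libraries, 20 loci reached 10 FPKM, 48 lay between 1 and 10 FPKM and 49 lay below 1 FPKM. RPP7 (AT1G58602, chromosome 1, 21746373 to 21764969 on the forward strand, TAIR10), which confers resistance to downy mildew, had the highest level, with 52.5 and 51.3 FPKM in Col-0. RPP13, another downy mildew resistance gene, followed at 38.6 and 38.0 FPKM. The third locus, AT1G63880, was at 32.3 and 33.8 FPKM, below RPP13 in both Col-0 libraries. At the other end, 45 loci did not pass the filter on low values. Among these, 13 stayed below 0.1 FPKM in every library, 2 of which (AT1G59124 and AT3G51560) are listed at 0 in every library. The highest value of any of the 45 in any library was 1.15 FPKM. RPS2, the receptor that senses loss of the guarded protein RIN4, was in this group at 0.208 to 0.457 FPKM, as was RLM1A, known for resistance to the fungus Leptosphaeria, at 0 to 0.0943 FPKM.

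**Figure D1:**
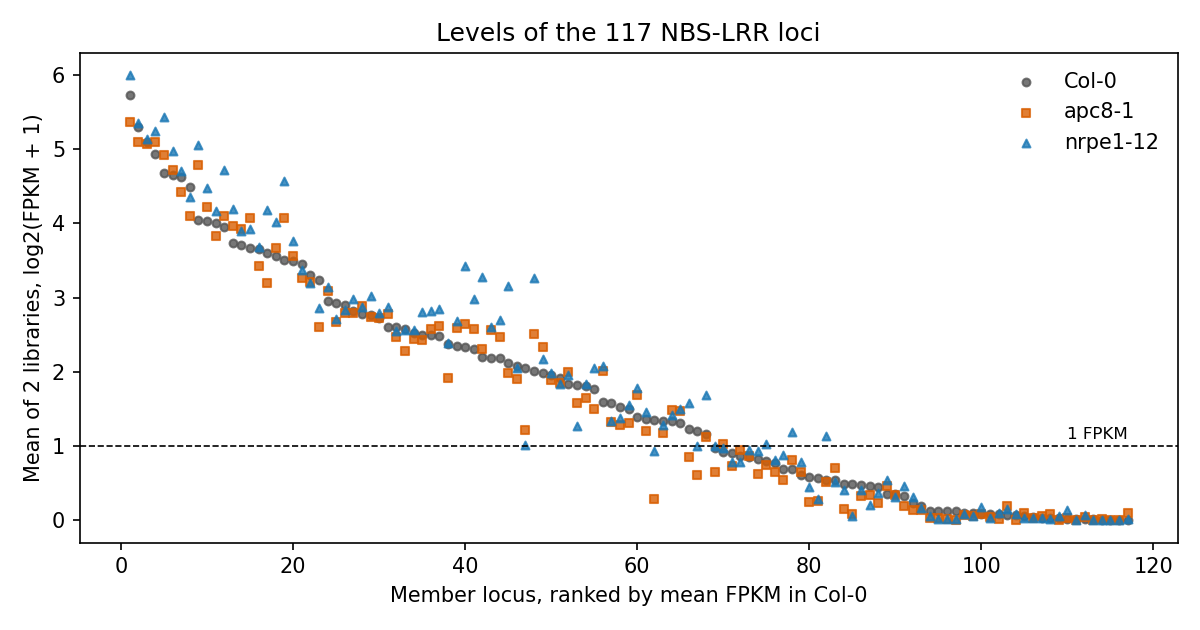
Mean level of each of the 117 NBS-LRR loci in Col-0 (circles), apc8-1 (squares) and nrpe1-12 (triangles), on the log2(FPKM + 1) scale, with loci ranked by their mean in Col-0 and 2 libraries per mean. The curve falls from RPP7 to loci near 0, with 49 loci below 1 FPKM (dashed line) in Col-0, and many triangles in the upper and middle range lie above the circles.

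Summed over all 117 loci, receptor transcripts came to 597 and 593 FPKM in Col-0, 584 and 604 FPKM in apc8-1, and 733 and 755 FPKM in nrpe1-12. The nrpe1-12 libraries thus lay above the other four, which overlapped between Col-0 and apc8-1. As a share of all FPKM in a library, the Col-0 libraries gave 0.0930% and 0.0853%, those of apc8-1 0.0798% and 0.0799%, and those of nrpe1-12 0.0983% and 0.101%; on that scale apc8-1 lay below Col-0 without overlap and nrpe1-12 above it. The number of loci at 1 FPKM or more differed little, from 65 to 71 in a library. Of the 117, 72 were tested; 2 of these (AT3G25510 and AT1G56540) passed the filter through nrpe1-12 alone.

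In nrpe1-12 against Col-0, 21 of the 72 tested receptor loci rose (29.2%) and 3 fell (4.17%). Over all 17802 tested loci, 13.5% were called higher and 12.8% lower, 26.3% in either direction. The median change of the tested receptor loci was 0.18 on the log2 scale and 55 were above 0, beside a median of -0.01 over all tested loci. The 21 increases ranged from 0.27 to 1.25 on the log2 scale, 6 of them at 1 or more, and 20 of the 21 loci did not owe their place in the test to nrpe1-12 alone. Leaving out any 1 Col-0 or nrpe1-12 library lowered the number of increases, and the share of all tested loci called higher fell as well. Of the 21, 12 held their call under every alternative tried.

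Transcripts of TIR-type receptors made up the top of the list. AT5G58120 (chromosome 5, 23517492 to 23521067, forward strand), a TIR-type gene that overlaps AT5G58130 on the other strand, was at 3.06 and 3.02 FPKM in Col-0, at 4.0 and 5.43 in apc8-1 and at 8.18 and 9.06 in nrpe1-12. All 4 mutant libraries lay above Col-0, with nrpe1-12 highest, and the log2 change in nrpe1-12 was 1.25 (SE 0.14, adjusted p = 5.32e-04). The overlapping gene AT5G58130 was at 12.9 to 16.0 FPKM and was not called in any comparison; the strand counted is not stated, so reads of the 2 genes cannot be told apart.

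SSI4 (AT5G41750, chromosome 5, 16693909 to 16698943, forward strand) is a TIR-type receptor whose gain-of-function allele switches on salicylic acid signalling. It was at 3.24 and 3.42 FPKM in Col-0, at 3.05 and 2.87 in apc8-1 and at 7.60 and 8.31 in nrpe1-12. Only the nrpe1-12 libraries stood apart upwards, with a log2 change of 1.05 (SE 0.11, adjusted p = 4.32e-04). Its neighbour AT5G41740 (16688626 to 16693119, same strand) was at 4.15 and 3.94 FPKM in Col-0, at 5.15 and 5.35 in apc8-1 and at 10.01 and 9.46 in nrpe1-12. It rose by 1.09 in nrpe1-12 (SE 0.10, adjusted p = 2.17e-04). The pair are the only members of their cluster, where a cluster joins members within 200 kb of each other with fewer than 9 loci between them.

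AT5G36930 (chromosome 5, 14567622 to 14572630, reverse strand) was at 3.42 and 3.74 FPKM in Col-0, at 4.0 and 3.88 in apc8-1 and at 8.59 and 8.88 in nrpe1-12. Here too the nrpe1-12 libraries lay far above the other four, with a log2 change of 1.09 (SE 0.11, adjusted p = 2.80e-04). AT3G44630 (chromosome 3, 16196046 to 16201225, forward strand), a relative of the downy mildew resistance gene RPP1, lay at 3 separate levels, at 10.2 and 10.5 FPKM in Col-0, at 16.0 and 15.6 in apc8-1 and at 23.4 and 22.0 in nrpe1-12. Its log2 change in nrpe1-12 was 1.06 (SE 0.08, adjusted p = 7.44e-05). The next member on that chromosome, AT3G44670, was at 16.1 and 14.6 FPKM in Col-0, against 21.1 and 21.4 in nrpe1-12 (log2 change 0.45, SE 0.08, adjusted p = 4.52e-03).

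A locus that merges AT4G19530 with AT4G19540 lies in the RPP2 region (AT4G19530: chromosome 4, 10651744 to 10657282, forward strand). It was at 15.6 and 15.5 FPKM in Col-0, at 25.5 and 27.8 in apc8-1 and at 32.2 and 32.4 in nrpe1-12, again with 3 levels that did not overlap. Its log2 change in nrpe1-12 was 1.01 (SE 0.07, adjusted p = 7.12e-05), and the share of each merged gene in it is unknown. Whether AT4G19540 is a receptor gene was not checked. RPP2B, in the same cluster and known to act with RPP2A against downy mildew, was at 10.9 and 10.8 FPKM in Col-0, against 14.8 and 15.6 in nrpe1-12. It was called with a log2 change of 0.46 (SE 0.12, adjusted p = 0.0299), and the call was lost under 6 of 14 alternatives. They were no filter, dropping genes of organelles and ribosomal RNA, and leaving out any 1 Col-0 or nrpe1-12 library. Between these loci, AT4G19520 was not called (log2 change 0.09).

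Among other increases, AT1G31540 (chromosome 1, 11290948 to 11293753, reverse strand) went from 14.9 and 14.1 FPKM in Col-0 to 25.3 and 25.1 in nrpe1-12, with apc8-1 at 15.4 and 16.8. A locus that merges AT5G40910, AT5G40920 and AT5G40930 was at 23.9 and 25.1 FPKM in Col-0, at 27.3 and 31.1 in apc8-1 and at 41.1 and 42.9 in nrpe1-12. The share of each merged gene in it is unknown, and whether AT5G40920 and AT5G40930 are receptor genes was not checked. AT1G56520 was at 4.23 and 3.69 FPKM in Col-0, against 6.77 and 6.97 in nrpe1-12. Their log2 changes in nrpe1-12 were 0.76, 0.75 and 0.67, all without overlap of the libraries compared. The scarce AT3G25510 had 0.478 and 0.445 FPKM in Col-0, against 1.18 and 1.22 in nrpe1-12; since it passed the filter only through nrpe1-12 it had to differ, and its call (log2 change 0.59, adjusted p = 0.0290) was lost without Col-0 replicate 1 (0.118) or Col-0 replicate 2 (0.138). The other 11 increases lay between 0.27 and 0.59.

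Only 3 receptor loci fell in nrpe1-12. AT4G23510, a TIR-type gene on chromosome 4 (12267516 to 12270543, reverse strand), was at 3.42 and 2.91 FPKM in Col-0, at 1.25 and 1.39 in apc8-1 and at 0.934 and 1.1 in nrpe1-12. Both mutants lay well below Col-0, and in nrpe1-12 it had a log2 change of -1.04 (SE 0.15, adjusted p = 1.58e-03). AT5G35450, of the CC type, was at 8.49 and 8.29 FPKM in Col-0, at 5.32 and 4.89 in apc8-1 and at 6.13 and 6.35 in nrpe1-12. Its log2 change in nrpe1-12 was -0.37 (SE 0.10, adjusted p = 0.0271), a call lost without Col-0 replicate 1, Col-0 replicate 2, nrpe1-12 library a or nrpe1-12 library b (0.0796 to 0.132). AT1G58400, a CC-type gene of the RPP7 cluster, was at 2.44 and 2.65 FPKM in Col-0, against 1.22 and 1.6 in nrpe1-12 (log2 change -0.56, adjusted p = 0.0248; 0.0882 without Col-0 replicate 1, 0.135 without Col-0 replicate 2 and 0.126 without nrpe1-12 library a).

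**Figure D2:**
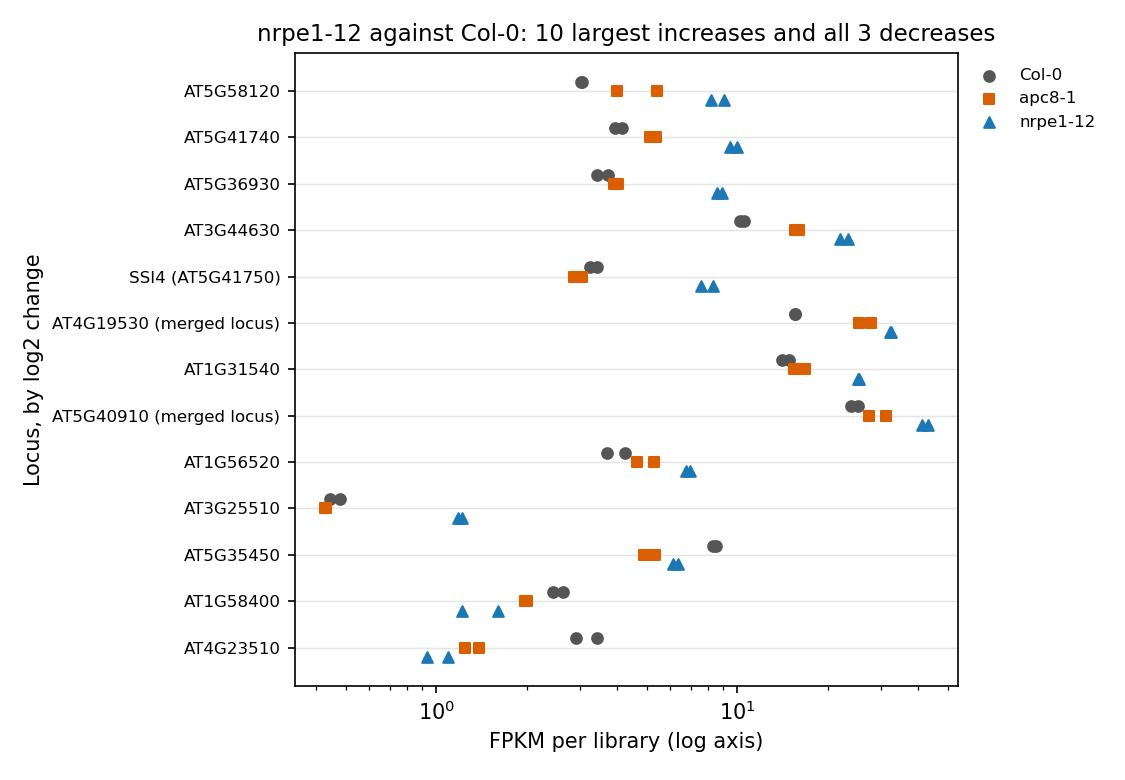
FPKM in each library (log axis) of the 10 NBS-LRR loci with the largest called increase and the 3 with a called decrease in nrpe1-12 against Col-0; each point is 1 library, circles Col-0, squares apc8-1 and triangles nrpe1-12. The nrpe1-12 points lie right of the Col-0 points in the upper 10 loci (SSI4 at 7.60 and 8.31 against 3.24 and 3.42 FPKM) and left of them in the lower 3.

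In apc8-1 against Col-0, 5 of the 72 tested receptor loci rose (6.94%) and 8 fell (11.1%). Over all tested loci 14.1% were called higher and 16.1% lower, 30.2% in either direction, so the share of receptors called was below that of the table in both directions. Their median change was -0.03 on the log2 scale, beside 0.01 over all tested loci. The split of calls depended on scaling. Of the called receptor loci 38.5% were higher in the fit as reported and 50% after median-of-ratios scaling. That share was 57.1% after quantile normalization and 23.1% when genes of organelles and ribosomal RNA were dropped. Calls over all tested loci moved too, to 14.5% higher and 16.0% lower, 15.8% and 14.8%, and 9.89% and 20.9% under these 3 alternatives. In these fits the median of the receptor loci minus that of all loci lay between -0.04 and -0.02. It was -0.07 with a pseudocount of 0.1, and its sign turned, to 0.04, with a filter of 5 FPKM. With that filter 7 of 43 tested receptor loci rose and 4 fell, beside 19.4% and 18.3% of all tested loci. Fewer receptor loci were called in each direction without Col-0 replicate 1, Col-0 replicate 2 or apc8-1 replicate 2. The shares over all tested loci fell in these fits as well.

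The largest receptor change in apc8-1 was a decrease of RMG1 (AT4G11170, chromosome 4, 6811127 to 6817130, forward strand), a TIR-type receptor gene known for a promoter repeat that is a target of RNA-directed DNA methylation and of the demethylase ROS1. It was at 1.45 and 1.65 FPKM in Col-0, at 0.246 and 0.199 in apc8-1 and at 0.740 and 1.1 in nrpe1-12, which rested on an estimated 84 and 72, 12 and 10, and 38 and 46 fragments. The apc8-1 libraries were lowest and both mutants lay below Col-0. Its log2 change in apc8-1 was -1.06 (SE 0.17, adjusted p = 2.64e-03), and in nrpe1-12 it was -0.42 and not called (SE 0.17, adjusted p = 0.118). The difference between the mutants was -0.64 (SE 0.17, adjusted p = 0.0360), a call lost in 7 of 12 alternatives, each leave-one-library-out fit among them (0.0563 to 0.184).

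AT4G23510 and AT5G35450, whose values are given above, also fell in apc8-1, by 0.84 (SE 0.15, adjusted p = 3.78e-03) and 0.62 (SE 0.10, adjusted p = 2.49e-03) on the log2 scale. The CC-type gene AT1G63360 was at 21.4 and 21.7 FPKM in Col-0, at 16.7 and 15.4 in apc8-1 and at 18.8 and 20.1 in nrpe1-12. Its libraries fell into 3 levels with apc8-1 lowest, and its log2 change in apc8-1 was -0.40 (SE 0.08, adjusted p = 6.0e-03). Like RMG1, these 3 genes held their calls in apc8-1 under every alternative in which they were tested; RMG1 and AT4G23510 were not tested with a filter of 5 FPKM. SUMM2, the receptor that monitors a MAP kinase cascade through the kinase CRCK3, was at 3.93 and 4.46 FPKM in Col-0, at 3.06 and 2.48 in apc8-1 and at 4.0 and 4.45 in nrpe1-12, so that Col-0 and nrpe1-12 overlapped above apc8-1. Its call in apc8-1 (log2 change -0.46, SE 0.13, adjusted p = 0.0336) was lost under 6 of 14 alternatives. They were no filter, quantile normalization, the replicate block and leaving out Col-0 replicate 1, Col-0 replicate 2 or apc8-1 replicate 2. AT5G38340, at 1.27 and 1.35 FPKM in Col-0, against 0.645 and 0.413 in apc8-1, was called with a log2 change of -0.60 (adjusted p = 0.0268). This call was lost under 4 of 14 alternatives. They were quantile normalization and leaving out Col-0 replicate 1, Col-0 replicate 2 or apc8-1 replicate 2.

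The increases in apc8-1 were led by the merged locus of AT4G19530 and AT4G19540 (log2 change 0.74, SE 0.07, adjusted p = 2.37e-04) and by AT3G44630 (0.56, SE 0.08, adjusted p = 1.20e-03), both of which held under every alternative tried. RPP4, a TIR-type downy mildew resistance gene, was at 11.2 and 12.2 FPKM in Col-0, at 15.6 and 16.1 in apc8-1 and at 13.9 and 14.4 in nrpe1-12, with apc8-1 highest. Its log2 change in apc8-1 was 0.41 (SE 0.08, adjusted p = 7.19e-03; 0.0610 without Col-0 replicate 1). RPP4 (9488466 to 9495816) was deposited under a shared span, 9482769 to 9544504, as were AT4G16900, AT4G16920 and AT4G16940. By the positions used, all of these overlap a locus that merges SNC1 (AT4G16890) with AT4G16950. Whether the genes themselves overlap was not checked. The merged locus was at 83.3 to 107 FPKM without a call, and the split of reads between it and RPP4 is uncertain. AT5G58120 (0.49, adjusted p = 0.0333) and AT1G53350 (0.38, adjusted p = 0.0360) completed the list. AT5G58120 lost its call under 7 of 15 alternatives, among them leaving out Col-0 replicate 1, Col-0 replicate 2 or apc8-1 replicate 2. AT1G53350 lost its call under 10 of 14, among them leaving out any 1 of the 6 libraries. Both also lost it with no filter and with the replicate block.

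**Figure D3:**
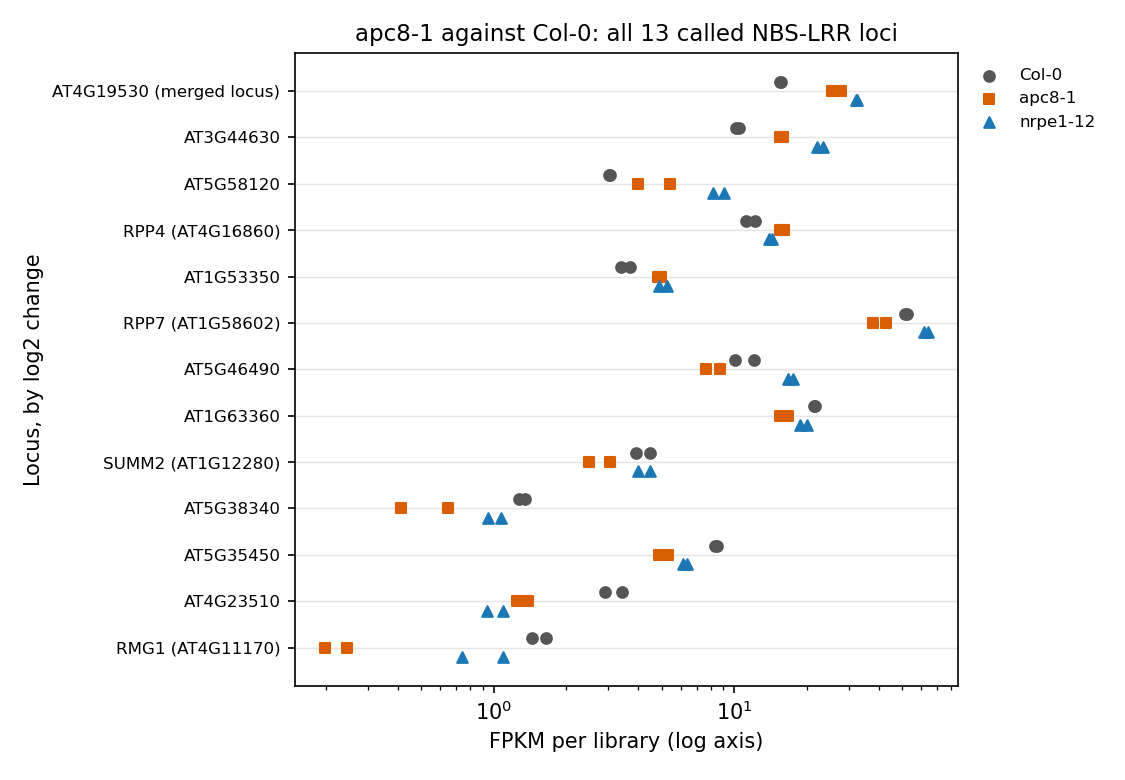
FPKM in each library (log axis) of the 13 NBS-LRR loci called in apc8-1 against Col-0; each point is 1 library, circles Col-0, squares apc8-1 and triangles nrpe1-12, with loci ordered by the change in apc8-1. RMG1 shows the widest gap, from 1.45 and 1.65 FPKM in Col-0 to 0.246 and 0.199 in apc8-1, while for RPP7 and AT5G46490 the squares lie left and the triangles right of the circles.

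The mutants were also compared directly. In apc8-1 against nrpe1-12, no receptor locus was called higher, with none at an unadjusted p below 0.05 in limma, and 20 were lower (27.8%), or 19 of the 70 loci that did not pass the filter through 1 genotype alone, while over all tested loci 7.26% were higher and 11.4% lower (18.7% in either direction). The median change of the receptor loci was -0.24 on the log2 scale and 61 of 72 were below 0, beside a median of 0.00 over all tested loci. The number lower fell when any 1 of the 6 libraries was left out, and so did the share of all tested loci called lower. Of the 20, 8 loci held their call under every alternative tried. This comparison uses the same nrpe1-12 libraries as that of nrpe1-12 against Col-0, and 14 of the 20 were also called higher there. Another 4 had no call against Col-0 in either mutant.

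SSI4 led with a log2 change of -1.17 (SE 0.11, adjusted p = 3.86e-04), followed by AT5G46490, AT5G36930 (-0.98, adjusted p = 7.01e-04) and AT5G41740 (-0.78, adjusted p = 1.65e-03). AT5G46490 (chromosome 5, 18850776 to 18852862, forward strand) is a TIR-type gene next to VICTL and VICTR, the latter known from abscisic acid and small-molecule responses. It was at 12.1 and 10.1 FPKM in Col-0, at 8.77 and 7.64 in apc8-1 and at 16.7 and 17.6 in nrpe1-12. The wild type lay between the mutants without overlap, and the mutants differed by -0.98 (SE 0.11, adjusted p = 8.02e-04). Against the shared Col-0 libraries its log2 change was 0.59 in nrpe1-12 (SE 0.11, adjusted p = 5.87e-03) and -0.39 in apc8-1 (SE 0.11, adjusted p = 0.0299), the latter call being lost without Col-0 replicate 1 (0.187) or apc8-1 replicate 2 (0.133).

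RPP7 showed the same order of genotypes. It was at 52.5 and 51.3 FPKM in Col-0, at 37.7 and 42.6 in apc8-1 and at 61.8 and 63.7 in nrpe1-12, with no overlap between genotypes. The difference between the mutants was -0.63 (SE 0.07, adjusted p = 8.79e-04). Against Col-0 the change was -0.36 in apc8-1 (SE 0.07, adjusted p = 6.98e-03; 0.0524 without Col-0 replicate 1) and was 0.27 in nrpe1-12 (SE 0.07, adjusted p = 0.0283). The latter call was lost without Col-0 replicate 1, Col-0 replicate 2, nrpe1-12 library a or nrpe1-12 library b (0.0808 to 0.142) and after genes of organelles and ribosomal RNA were dropped (0.167). A transposable element gene inside the RPP7 locus, AT1G58561, was at 6.0 to 8.97 FPKM and was not called.

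Further members lower in apc8-1 than in nrpe1-12 were AT5G58120 (-0.76; adjusted p = 0.0613 without nrpe1-12 library b), AT4G14370 (-0.74), AT3G25510 (-0.62), AT1G31540 (-0.61) and AT1G50180 (-0.56). AT3G25510, which passed the filter only through nrpe1-12, lost this call without either Col-0 or either apc8-1 library (0.0609 to 0.0991), and AT1G50180 without any 1 of the 6 libraries (0.0604 to 0.156). AT4G14370, a TIR-type gene, was at 1.41 and 1.3 FPKM in Col-0, at 1.05 and 0.571 in apc8-1 and at 1.71 and 2.29 in nrpe1-12. It was not called against Col-0 in either mutant, and its call between the mutants (adjusted p = 0.0291) was lost without apc8-1 replicate 2 (0.134), nrpe1-12 library a (0.0537), nrpe1-12 library b (0.162), Col-0 replicate 1 (0.0507) or Col-0 replicate 2 (0.0504).

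Of receptors with a described role, 22 were among the members and 20 were tested; those not yet described follow. Among receptors that guard RIN4, RPM1 was at 2.00 and 2.05 FPKM in Col-0, at 2.77 and 3.28 in apc8-1 and at 2.91 and 3.52 in nrpe1-12. Both mutants lay above Col-0. RPM1 was called in nrpe1-12 (log2 change 0.48, SE 0.14, adjusted p = 0.0401) but not in apc8-1 (0.41, adjusted p = 0.0602). The call in nrpe1-12 was lost under 6 of 13 alternatives. They were no filter, dropping genes of organelles and ribosomal RNA, and leaving out any 1 Col-0 or nrpe1-12 library. LOV1, a CC-type gene that gives sensitivity to the fungal toxin victorin, was at 3.27 and 3.80 FPKM in Col-0, at 4.66 and 4.37 in apc8-1 and at 5.29 and 5.74 in nrpe1-12. The nrpe1-12 libraries were highest, and its log2 change there was 0.52 (SE 0.12, adjusted p = 0.0142; 0.0959 without Col-0 replicate 1 and 0.0801 without nrpe1-12 library b).

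RPS4 and RRS1, which work as a pair and are transcribed away from each other from start sites 181 bp apart, were not called in any comparison. RPS4 was at 11.4 and 11.9 FPKM in Col-0, at 8.84 and 10.7 in apc8-1 and at 11.8 and 11.9 in nrpe1-12, and RRS1 was at 4.16 to 5.14 FPKM in the 6 libraries. The helper receptors, which relay the signal of many sensors, were not called either: ADR1 was at 4.27 to 6.44 FPKM, NRG1.1 at 5.47 to 6.14 and NRG1.2 at 2.09 to 2.70. For ADR1 the nrpe1-12 libraries (5.53 and 6.44 FPKM) lay above Col-0 (4.58 and 4.74), with a log2 change of 0.30 (SE 0.12, adjusted p = 0.0951). RPP13 (30.9 to 41.8 FPKM) and RPP1 (11.9 to 14.5 FPKM), both known from downy mildew resistance, were also without a call, as were DSC1 (4.30 to 5.25 FPKM), known from autoimmunity in plants without CAMTA3, and CSA1 (3.82 to 5.53 FPKM), which pairs with CHS3. VICTR (1.29 to 1.99 FPKM), VICTL (1.45 to 2.58 FPKM) and CW9 (4.28 to 6.70 FPKM) had no call. LAZ5, known from cell death in acd11 plants, was at 16.4 and 13.9 FPKM in Col-0, at 13.5 and 13.1 in apc8-1 and at 17.2 and 16.6 in nrpe1-12. Col-0 lay between the mutants and overlapped neither apc8-1 nor nrpe1-12, and LAZ5 was lower in apc8-1 than in nrpe1-12 (log2 change -0.32, adjusted p = 0.0488), a call lost without any 1 of the apc8-1 or nrpe1-12 libraries (0.108 to 0.172).

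Among loci described as TIR-NBS-LRR, 13 of 47 tested rose in nrpe1-12 against Col-0 and 1 fell, with a median log2 change of 0.18. The class counts that follow are from the same comparison, where 13.5% of all tested loci were called higher and 12.8% lower. Of 16 tested CC-NBS-LRR loci, 3 rose and 2 fell (median 0.04). Loci described only by NB-ARC, to which RPM1, RPP13 and LOV1 belong in this annotation, had 3 of 4 tested called higher, and those described by LRR and NB-ARC had 2 of 4. Of the 12 increases that held under every alternative, 11 were TIR-NBS-LRR loci and 1 was a CC-NBS-LRR locus. Both merged loci are among the 11. All 3 NB-ARC calls and both LRR and NB-ARC calls were lost in at least 1 alternative. In apc8-1 against nrpe1-12, 16 TIR-NBS-LRR loci, 3 LRR and NB-ARC loci and 1 NB-ARC locus were lower, and no CC-NBS-LRR locus was called. Over all tested loci 11.4% were called lower in that comparison. The difference between classes was not tested.

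**Figure D4:**
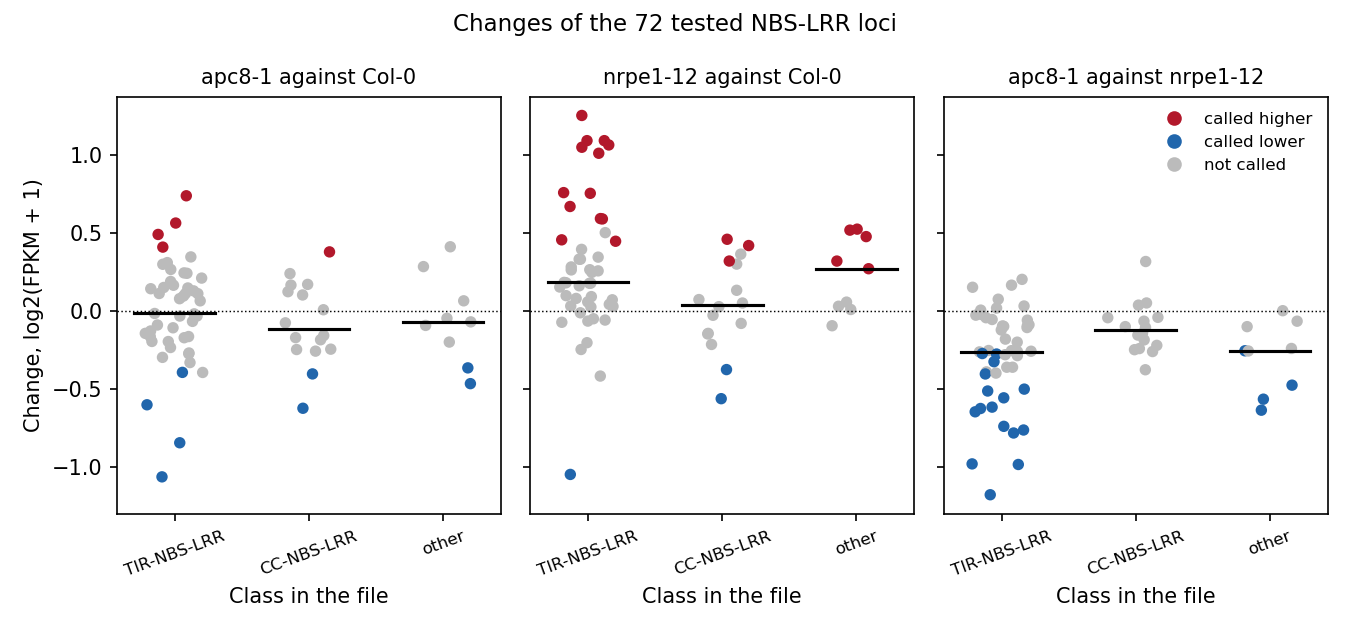
Change of each of the 72 tested NBS-LRR loci on the log2(FPKM + 1) scale in the 3 comparisons, by class in the deposited annotation; each point is 1 locus, red called higher, blue called lower, grey not called, and bars are medians. The red points of the middle panel reach 1.25 and the TIR-NBS-LRR median there is 0.18, while the right panel has 20 blue points and no red one.

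The members lay unevenly in the genome, with 44 on chromosome 5, 35 on chromosome 1, 22 on chromosome 4, 13 on chromosome 3 and 3 on chromosome 2. By the rule above they formed 73 clusters, 47 of them single loci, and 70 loci lay in the 26 clusters of 2 or more. The 21 increases in nrpe1-12 came from 18 clusters, and 3 clusters held more than 1: that of SSI4, that of AT3G44630 and that of RPP2B. In the RPP7 cluster, which has 8 members, RPP7 was higher and AT1G58400 lower in nrpe1-12, while AT1G58807 and AT1G58848 were not called (log2 changes 0.05 and 0.13); fragments of near-identical copies there, and among other close relatives, may have been split arbitrarily. Of the tested members, 8 lay within 5 kb of an annotated transposable element gene and 4 of these rose in nrpe1-12, beside 17 of the 64 farther away, a difference that was not tested. For SSI4 that element gene, AT5G41755, lay 1085 bp away and was at 0 to 0.0423 FPKM, and for AT5G36930 it was AT5G36935, 1970 bp away and at 0 to 0.0508 FPKM.

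Genes that act with the receptors were taken from a list of 48; 47 could be matched to the table, and all 47 were tested. In nrpe1-12, 10 rose (21.3%) and 5 fell (10.6%), beside 13.5% and 12.8% of all tested loci. In apc8-1, 5 rose (10.6%) and 11 fell (23.4%), beside 14.1% and 16.1%. Between the mutants, 1 was higher in apc8-1 (2.13%) and 13 were lower (27.7%), beside 7.26% and 11.4%. EDS1, which TIR-type receptors require, was not called in any comparison (12.1 to 14.7 FPKM in all libraries). Its partner PAD4 was at 13.3 and 13.3 FPKM in Col-0, at 7.78 and 8.28 in apc8-1 and at 12.7 and 14.2 in nrpe1-12. It was lower in apc8-1, with a log2 change of -0.67 (SE 0.09, adjusted p = 1.16e-03), whereas SAG101, the other partner of EDS1, was called higher there (0.40, adjusted p = 0.0342). The SAG101 call was lost under 7 of 15 alternatives. Among them were no filter, dropping genes of organelles and ribosomal RNA, the replicate block and leaving out Col-0 replicate 2 or apc8-1 replicate 2.

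Of 7 tested chaperone genes that serve receptor folding, 3 fell (42.9%) and none rose in apc8-1, beside 16.1% and 14.1% of all tested loci. In nrpe1-12, 2 rose (28.6%) and 3 fell (42.9%), beside 13.5% and 12.8%. Among those 3 decreases, HSP90.2 and HSP90.4 lost their calls under 4 and 3 of 14 alternatives. RAR1 and SGT1B were called in no comparison. HSP90.1, the heat-inducible form, was at 15.8 and 14.4 FPKM in Col-0, at 5.32 and 5.70 in apc8-1 and at 20.6 and 22.0 in nrpe1-12. Col-0 lay between the mutants, with log2 changes of -1.3 in apc8-1 (SE 0.09, adjusted p = 4.02e-05) and of 0.47 in nrpe1-12 (SE 0.09, adjusted p = 6.46e-03; 0.0574 without Col-0 replicate 2). HSP90.3 fell in both mutants, by 0.87 in apc8-1 and 0.37 in nrpe1-12, and it is so close to HSP90.2 and HSP90.4 that the split of reads among them is uncertain. The co-chaperone SGT1A was at 15.1 and 13.5 FPKM in Col-0, at 14.3 and 14.2 in apc8-1 and at 26.3 and 22.7 in nrpe1-12, where it rose by 0.73 (SE 0.10, adjusted p = 1.03e-03).

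Among proteins that receptors guard, PBL2, the kinase whose modification activates ZAR1, was at 16.1 and 16.4 FPKM in Col-0, at 10.2 and 9.03 in apc8-1 and at 11.1 and 12.0 in nrpe1-12. Both mutants lay below Col-0, with log2 changes of -0.70 in apc8-1 (SE 0.09, adjusted p = 1.01e-03) and of -0.45 in nrpe1-12 (SE 0.09, adjusted p = 8.68e-03; 0.0583 without Col-0 replicate 2 and 0.0560 without nrpe1-12 library a). CRCK3, which SUMM2 monitors, fell in apc8-1 by 0.47 (SE 0.09, adjusted p = 5.58e-03).

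Of 19 tested genes that regulate receptor level or activity, in either direction, 6 rose in nrpe1-12 (31.6%) and none fell. Of the same genes, 3 rose in apc8-1 (15.8%) and none fell. Over all tested loci 13.5% were called higher in nrpe1-12 and 14.1% in apc8-1. The 3 in apc8-1 were NUDT7, SRFR1 and MOS7, and SRFR1 and MOS7 lost that call under 5 of 15 and 1 of 14 alternatives. BAP1, a partner of the copine BON1 in holding back cell death, was at 4.74 and 4.81 FPKM in Col-0, at 5.19 and 5.82 in apc8-1 and at 11.9 and 11.3 in nrpe1-12 (log2 change 1.13, SE 0.10, adjusted p = 1.91e-04). NUDT7, a hydrolase that limits EDS1 signalling, was at 10.6 and 10.5 FPKM in Col-0, at 14.1 and 14.8 in apc8-1 and at 21.6 and 22.2 in nrpe1-12. It showed 3 levels and rose by 0.43 in apc8-1 (SE 0.08, adjusted p = 4.17e-03) and by 0.99 in nrpe1-12 (SE 0.08, adjusted p = 9.59e-05). SRFR1, a negative regulator of receptors such as SNC1, rose by 0.43 in nrpe1-12 (SE 0.07, adjusted p = 2.37e-03). The other increases in nrpe1-12 were those of MOS7, a nucleoporin that autoimmunity of snc1 plants requires, and of CPR5 and LSD1, which hold back cell death. These calls were lost when any 1 Col-0 or nrpe1-12 library was left out, at adjusted p of 0.105 to 0.182 for MOS7, 0.102 to 0.132 for CPR5 and 0.0772 to 0.192 for LSD1.

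Of 6 outputs of receptor signalling, 2 rose (33.3%) and 1 fell (16.7%) in nrpe1-12, beside 13.5% and 12.8% of all tested loci. In apc8-1, 1 rose (16.7%) and 5 fell (83.3%), beside 14.1% and 16.1%. FMO1, 1 of these 5, lost its call under 3 of 14 alternatives. ACD6, an ankyrin protein that promotes salicylic acid accumulation, was at 20.5 and 19.7 FPKM in Col-0, at 10.7 and 9.01 in apc8-1 and at 43.1 and 44.3 in nrpe1-12. It lay far apart in the 3 genotypes, with log2 changes of -0.96 in apc8-1 (SE 0.09, adjusted p = 1.84e-04) and of 1.08 in nrpe1-12 (SE 0.09, adjusted p = 1.41e-04). The salicylic acid marker PR1 was at 69.0 and 68.8 FPKM in Col-0, at 85.0 and 84.2 in apc8-1 and at 119 and 126 in nrpe1-12, with no overlap. It rose by 0.29 in apc8-1 (SE 0.06, adjusted p = 5.95e-03) and by 0.82 in nrpe1-12 (SE 0.06, adjusted p = 5.85e-05). PBS3, an enzyme of salicylic acid synthesis, was at 9.47 and 8.48 FPKM in Col-0, at 2.86 and 3.09 in apc8-1 and at 3.53 and 3.84 in nrpe1-12. It fell in both, by 1.32 in apc8-1 (SE 0.12, adjusted p = 1.27e-04) and by 1.09 in nrpe1-12 (SE 0.12, adjusted p = 4.02e-04), while ICS1, which makes isochorismate, the substrate of PBS3, fell in apc8-1 (-0.62, adjusted p = 2.32e-03) and was not called in nrpe1-12.

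**Figure D5:**
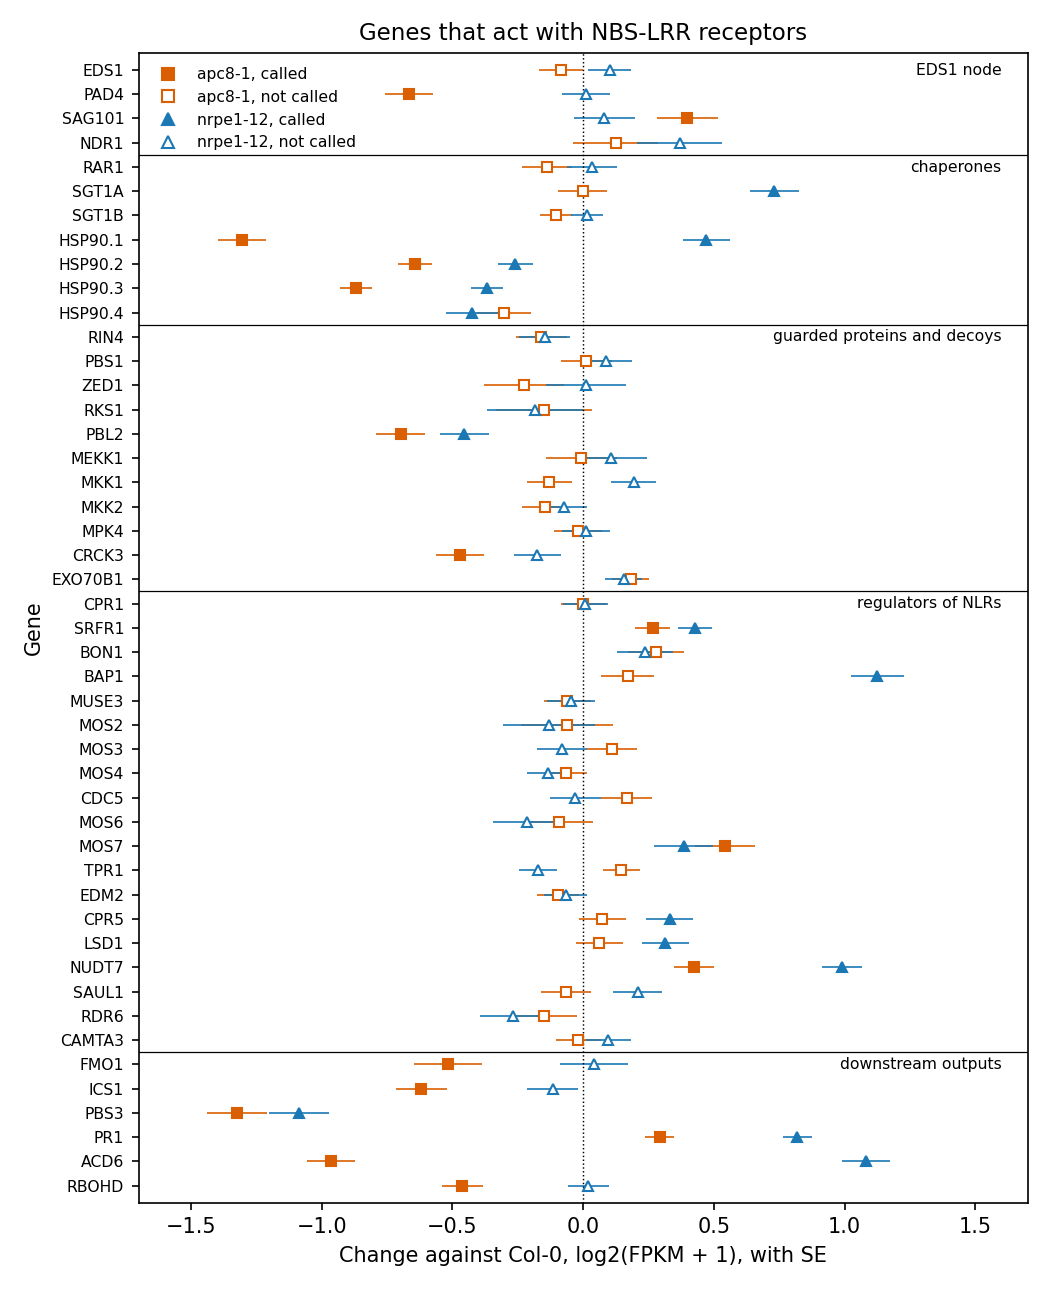
Change against Col-0 on the log2(FPKM + 1) scale, with its standard error, of the 47 tested genes that act with NBS-LRR receptors, grouped by role; squares are apc8-1, triangles nrpe1-12, filled symbols are called. ACD6 and HSP90.1 lie on opposite sides of 0 in the 2 mutants, EDS1 is open in both, and NUDT7 and PR1 are filled right of 0 in both.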

How the data were processed

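The members were the loci chosen by annotation text, and the gene lists, tests and alternatives were chosen with earlier results of these data known. Per the submitters' processing notes, the authors used TopHat2 2.0.13, Cufflinks 2.2.1, Cuffnorm 2.2.1 and the genome build TAIR10; the role of each tool and the strand counted are not given in the sources used here. The deposited values are FPKM per library and locus. A second deposited table gave exon positions and other annotation without values. Coordinates are those of the deposited annotation, and names were matched to RefSeq for all 117 members. The 2 nrpe1-12 columns share a name and are called library a and b in table order.

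Values were taken as log2(FPKM + 1). Loci that reached 1 FPKM in 2 or more libraries were fitted with limma 3.58.1 in R 4.3.3 (lmFit, eBayes with trend, 3 residual and 4.93 prior degrees of freedom), with Benjamini-Hochberg adjustment over all 17802 tested loci. An exact permutation test of 2 against 2 libraries cannot go below p = 0.333. Fragments per FPKM were read from the spacing of low values in single-exon genes longer than 1500 bp: 99.2 to 100% of these values came within 0.15 of whole fragments. The procedure was tested on simulated data.

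Named were up to 10 called members with the largest increase and up to 10 with the largest decrease in each comparison (higher group at 1 FPKM or more, no overlap of libraries), receptors with a described role, and up to 3 partner genes per role with the smallest p. Members named outside this rule, such as cluster neighbours and AT1G63880, were chosen after their values were seen. Alternatives tried were a pseudocount of 0.1 or 0.5, no filter, a filter of 5 FPKM, median-of-ratios and quantile scaling, dropping genes of organelles and ribosomal RNA, the compared genotypes alone, a replicate block and leaving out each library. Where a call is said to be lost without a library, other alternatives in some cases lost it too.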

Additional observations from a re-analysis of the deposited data

How the results depend on the processing

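For 88 results on single receptor and partner genes there were 1238 values under the alternatives. Of these, 1064 kept direction and call, 174 lost the call and 0 reversed. The 88 results do not cover every called receptor and partner gene, and over all of those more calls were lost. Among leaf markers, outside this count, quantile normalization turned LHCB2.1 to -0.13 in apc8-1 and PSAD1 below 0 in both mutants. Counts of called receptor loci moved as follows. In apc8-1 against Col-0 the 5 increases became 8 with median-of-ratios scaling or quantile normalization, and 3 with no filter, when genes of organelles and ribosomal RNA were dropped or with the compared genotypes alone; the 8 decreases became 4 with a filter of 5 FPKM, and in nrpe1-12 against Col-0 the 3 decreases became 1; with that filter 43 receptor loci were tested, and the 4 and 2 missing decreases were not among them. In apc8-1 against nrpe1-12 the 20 decreases became 11 with quantile normalization or the compared genotypes alone. The cause of the other moves was not tested. Dropping genes of organelles and ribosomal RNA moved the median of all loci in nrpe1-12 to -0.11; the receptors then had 14 increases, 4 decreases and a median of 0.07, so that they lay 0.18 above all loci, against 0.19 before.

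With 1 library left out, receptor calls ranged from 2 to 5 higher and 4 to 8 lower in apc8-1, from 12 to 21 higher and 1 to 3 lower in nrpe1-12, and from 0 to 0 higher and 8 to 12 lower between the mutants. Calls among the 47 partner genes ranged from 2 to 5 higher and 10 to 12 lower, from 6 to 9 higher and 2 to 5 lower, and from 0 to 1 higher and 10 to 13 lower. Over all tested loci, too, the shares called higher and lower fell when a library of a compared genotype was left out. A group left with 1 library is assumed to vary like the others.

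The replicate number was used as a block in Col-0 and apc8-1. Deviations of same-numbered libraries correlated at r = -0.0585. With 2 libraries per genotype this value cannot tell whether the numbers mark a shared culture, day or batch, which the labels do not state. With the block, 3 receptor loci were higher and 7 lower in apc8-1, and 3 of the partner genes were higher, as they were when genes of organelles and ribosomal RNA were dropped. No paired analysis was possible for nrpe1-12 because both of its columns carry the same name, so neither can be matched to a numbered library. Depth limits the low loci: at 1 FPKM the shortest tested member would rest on about 17.2 fragments.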
